A study of Bos taurus and Sus scrofa with 10 samples.

Results

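RNA of pig oocytes was compared with RNA of pig embryos at the 2-4 cell stage. Each stage was represented by 1 RNA-seq library, so no p-value could be given for any difference. Members of the comparison were the gene rows of the pig table with a level of 1 RPM or more in at least 1 of the 2 libraries. RPM counts a gene's reads per 1000000 reads of its library. Of 21867 pig rows, 11362 met this rule. The rule set a level and not a direction of change. It divided 184 rows whose higher value lay between 1 and 1.2 RPM, the lowest at 1.18 RPM, from 492 rows between 0.8 and 1 RPM, the highest at 0.967 RPM. None of the 184 was called changed, but rows this low cannot reach the limit of a call given below. Their lack of calls is therefore no test of the rule.

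The series followed preimplantation development in pig and cow, with oocyte, 2-4 cell, 8-16 cell, morula and blastocyst libraries for each species, 10 libraries in all. Each library came from total RNA isolated with a PicoPure kit, amplified with the Ovation system for very small inputs, and taken through 8 further PCR cycles. No treatment was named for any library. The labels used here give neither breed, age, number of pooled oocytes or embryos, nor whether embryos were made in vivo or in vitro. The other 3 pig libraries and the cow libraries were used only as a description beside the pig oocyte and 2-4 cell values.

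A growing oocyte stores messenger RNA and proteins, then stops transcribing before it matures. After fertilisation the embryo runs on these stores, which are translated and degraded in a set order, until its own genome is switched on. This handover is called the maternal-to-zygotic transition, and in pig embryos its main wave of genome activation is usually placed in early cleavage. Stored mRNAs also gain or lose poly(A) tail during this period.

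The oocyte library held 3377626 reads and the 2-4 cell library 4138616, of which 86.3% and 83.9% lay in gene rows. For folds written as "at least", 0 reads were set to 3 reads, 0.888 RPM in the oocyte library and 0.725 RPM in the 2-4 cell library. The 95% Wilson upper limits for 0 reads were higher, at 1.14 and 0.928 RPM, and these folds carry no interval. Mitochondrial rows took 6.06% (95% Wilson interval 6.03 to 6.08%) of the oocyte reads and 12.4% (12.4 to 12.5%) of the 2-4 cell reads. All levels below are in RPM, which is relative to the library and not to gene length, so levels are compared between libraries and not between genes. Intervals cover counting error only, since the labels name no molecular identifiers and PCR copies could not be removed here. In these bulk libraries, fewer cells of a type and less RNA per cell cannot be told apart.

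Most genes had similar relative levels in the 2 libraries, and a small set of genes shifted strongly in each direction. Whether the RNA of the embryo was kept from the oocyte or newly made was not tested. The difference was taken as log2(RPM + 1) in the 2-4 cell library minus the same in the oocyte library, and a row was called changed at 2 or more in either direction, which is about 4-fold for a well-measured gene. By this rule 617 of 11362 rows changed (5.43%), 370 of them higher (3.26% of all rows) and 247 lower (2.17%) in the 2-4 cell library. The median difference over all rows was −0.14, with quartiles at −0.73 and 0.45, and 8261 rows (72.7%) lay within 1 of no difference. Across genes, which are not independent replicates, the levels of the 2 libraries had a Spearman correlation of 0.895.

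The call itself favours a low oocyte level in higher rows and needs some oocyte reads in lower rows, and the levels were as follows. Of the 370 higher rows, 203 had 0 reads in the oocyte library, 92 had 1 to 3 reads and 75 had more, and only 17 reached 50 RPM in the 2-4 cell library. Of the 247 lower rows, 34 had at least 100 RPM in the oocyte library, and 16 had 0 reads in the 2-4 cell library. The higher rows went from 0.0683% of the oocyte reads to 0.676% of the 2-4 cell reads in sum, while the lower rows went from 1.69% to 0.264%. Higher rows made up 60.0% of the changed rows, and this share was 75.6% with the median difference of well-expressed genes set to 0, 70.0% with TMM scaling and 69.3% with scaling to non-mitochondrial gene reads. A pseudocount of 5 RPM in place of 1, which gives low genes less weight, left 121 changed rows, 52 of them higher.

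**Figure D1:**
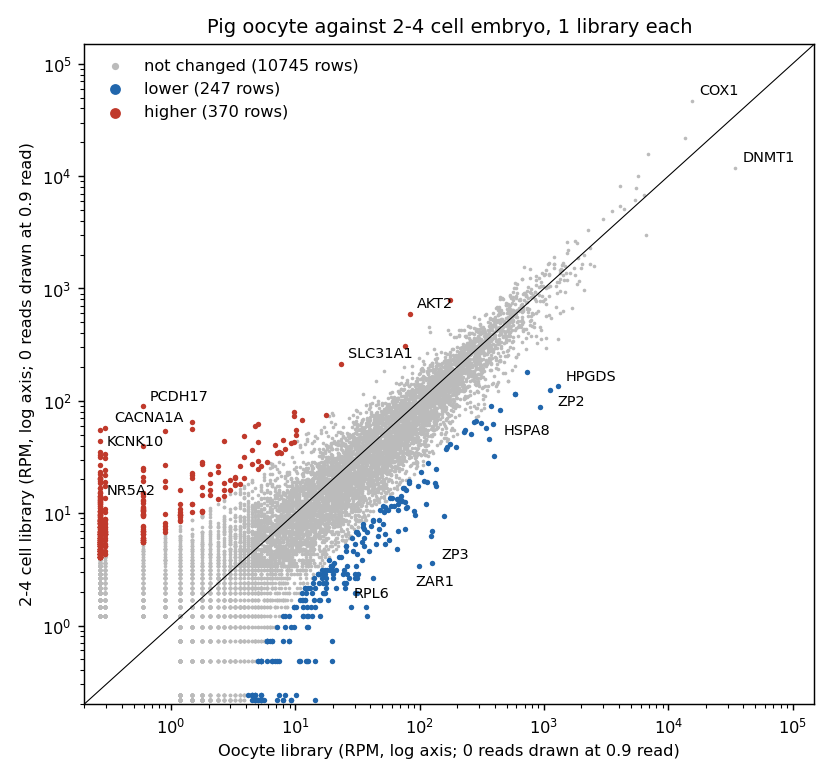
Level of each of the 11362 compared rows in the pig oocyte library (x axis, RPM, log scale) and the 2-4 cell library (y axis, RPM, log scale), with rows called higher in red, lower in blue and not changed in grey; the line marks equal levels. The 370 red rows sit mostly at the left edge with few or no oocyte reads, while the 247 blue rows reach up to HPGDS at 1307 RPM in the oocyte.

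Among the RNAs that were lower in the embryo were some of the best known products of the oocyte. ZP3 (chr3:9934760-9944941, Sscrofa11.1), a glycoprotein of the zona pellucida coat to which sperm bind, had 127 RPM (115 to 139) in the oocyte library and 3.62 RPM (2.20 to 5.98) in the 2-4 cell library. That is 35.0-fold lower (95% interval 21.0 to 63.0), and by the difference of log2(RPM + 1) it was the largest fall of any symbol with 10 RPM or more. ZP2 (chr3:24863730-24877522), another zona protein, went from 1128 to 126 RPM, 8.98-fold lower (8.19 to 9.86), in a span that overlaps TMEM159. ZP4 went from 201 (187 to 217) to 50.3 RPM (43.9 to 57.6), a difference of −1.98 just short of a call. The secreted growth factor BMP15, by contrast, kept most of its level, at 2361 RPM in the oocyte and 1648 RPM in the embryo. In the list of zona pellucida and oocyte-secreted factors, 2 of 9 compared members were lower and none higher. The shares over all rows were 2.17% lower and 3.26% higher. The list's median difference was −1.34 beside −0.14 over all rows.

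ZAR1 (chr8:38386643-38391611), an RNA-binding protein that oocytes use to store mRNA, fell along with the zona genes, from 99.5 RPM (89.4 to 111) to 3.38 RPM (2.02 to 5.68). Its value in the oocyte library was 29.4 times that in the embryo (17.3 to 54.4). Its paralog ZAR1L had 119.6 and 35.3 RPM, a difference of −1.73 that was not called. ZAR1 was the only lower member among 22 compared genes of maternal mRNA storage and translation control, whose median was 0.17. MSI2, an RNA-binding translation regulator, was the only higher member, with 0 reads in the oocyte and 5.07 RPM (3.32 to 7.76) in the embryo. OOEP, a part of the subcortical maternal complex beneath the egg membrane, went from 16.6 to 2.42 RPM, 6.86-fold lower (3.47 to 15.1). All 5 compared members of the NLRP and subcortical maternal complex list lay below 0, with a median of −0.93, among them NLRP9 (739 and 399.9 RPM) and PADI6 (60.4 and 28.5 RPM). OOEP alone was called, and it lost its call with a pseudocount of 5 RPM.

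**Figure D2:**
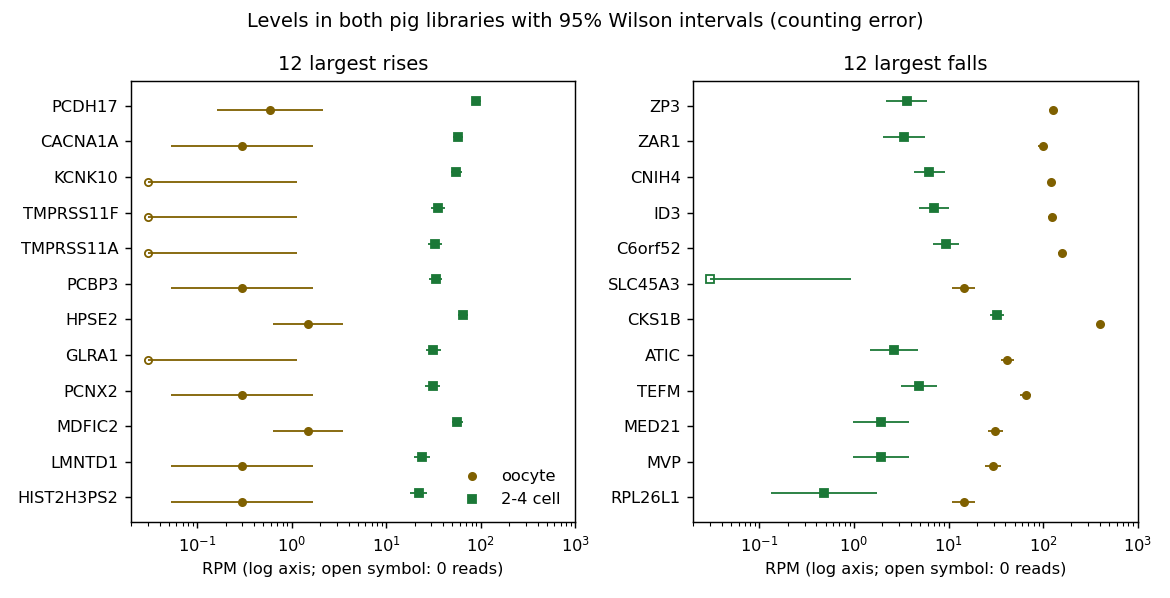
Levels in RPM (log axis) of the 12 symbols with the largest rise and the 12 with the largest fall among those with 10 RPM or more in either library, with 95% Wilson intervals for counting error; circles are the oocyte library, squares the 2-4 cell library, and open symbols stand for 0 reads. Intervals of the 2 libraries do not overlap for any of these 24 genes, and the oocyte values of the rises rest on 0 to 5 reads.

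The other large falls came from genes with varied roles. CNIH4, which helps cargo leave the endoplasmic reticulum, went from 123 to 6.28 RPM, 19.6-fold lower (13.2 to 30.3). ID3 (chr6:81422546-81424169), a BMP-responsive inhibitor of basic helix-loop-helix transcription factors, went from 125 to 7.01 RPM, 17.9-fold lower (12.3 to 27.0). It was the only called gene among 46 compared members of the TGF-beta, FGF, WNT and Notch signalling list. CKS1B, a small subunit of cyclin-dependent kinases, went from 397 to 32.4 RPM, 12.3-fold lower (10.3 to 14.8), in a span overlapping SHC1. ATIC, the enzyme of the last steps of purine synthesis, went from 42.0 to 2.66 RPM, 15.8-fold lower (8.58 to 32.4). TEFM, the elongation factor of mitochondrial transcription, had 65.4 and 4.83 RPM and overlaps ATAD5, itself lower at 341 and 57.3 RPM. C6orf52 (157 and 9.42 RPM), MED21 (31.4 and 1.93 RPM) and MVP, the major vault protein (29.9 and 1.93 RPM), were also among the 12 largest falls. SLC45A3 went from 14.5 RPM to 0 reads, at least 20.01-fold lower against the 3-read limit. RPL26L1, a ribosomal protein paralog, went from 14.5 RPM to 2 reads (0.483 RPM), a ratio of 30.0 (7.88 to 255).

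Several genes that fell were abundant in the oocyte library, and they are named here because of their level, after their values were seen. HPGDS (chr8:125382952-125405815), an enzyme that makes prostaglandin D2, went from 1307 RPM (1269 to 1346) to 136 RPM (125 to 147), 9.63-fold lower (8.81 to 10.5). HSPA8, the constitutive cytosolic heat shock cognate protein, went from 389.6 to 62.3 RPM, 6.25-fold lower (5.47 to 7.17), and was the only called gene of 28 compared heat shock proteins and chaperones. SALL4, a transcription factor of oocytes and pluripotent cells, went from 377 to 89.2 RPM. HPF1, the partner of PARP enzymes in ADP-ribosylation, went from 445 to 82.4 RPM. Genes of the cell surface and matrix were among them as well: the laminin chain LAMB1 went from 311 to 63.8 RPM, the hyaluronan synthase HAS3 from 284 to 65.7 RPM, and the tetraspanin TSPAN3 from 587 to 115 RPM in a span it shares with an unnamed row. The lysosomal protease CTSB went from 197 to 39.1 RPM and the lipid droplet protein PLIN2 from 133 to 18.6 RPM. These were exceptions at that level, since 34 of the 1924 rows with 100 RPM or more in the oocyte library were lower and 1 was higher, with a median difference of −0.18.

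Genes that build ribosomes and the respiratory chain had the lowest medians among the lists of more than 10 compared genes. Of 38 compared cytosolic ribosomal protein genes, 8 were lower, beside 2.17% of all rows, none was higher, and 34 had a difference below 0. The count of lower genes was 12 with a pseudocount of 0.5 RPM, 5 with median scaling and 1, RPL6, with a pseudocount of 5 RPM. Their median difference was −1.16, between −1.31 and −0.59 under the other pseudocounts and scalings tried, beside −0.14 for all rows. RPL6, a protein of the large subunit, went from 24.9 RPM (20.1 to 30.8) to 2.17 RPM (1.14 to 4.13), 11.4-fold lower (5.75 to 25.9). RPL27 went from 12.4 to 1.21 RPM (10.3-fold lower, 4.08 to 33.3) and RPS15A from 34.3 to 5.56 RPM. The median level of the 38 went from 6.81 RPM in the oocyte to 2.42 RPM at the 2-4 cell stage. Ribosomal protein genes have many processed copies in mammalian genomes, so reads shared with such copies make their counts uncertain.

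Nuclear genes of the respiratory chain gave similar values. Of 32 compared members, 5 were lower, beside 2.17% of all rows, none was higher and 31 had a difference below 0. Among rows spanning 10 to 20 kb, a class that takes in this list's median span of 10.4 kb, 4.79% were lower. The list's median difference was −1.24 (−1.36 to −0.77 under the alternatives). The count of lower genes was 8 with a pseudocount of 0.5 RPM, and 2 with one of 5 RPM or under median or TMM scaling. NDUFS3, a core subunit of complex I, went from 89.4 RPM (79.9 to 100.1) to 10.4 RPM (7.71 to 14.0), 8.61-fold lower (6.24 to 12.1). NDUFB9, another complex I subunit, went from 35.5 to 5.07 RPM. Both spans overlap those of neighbouring genes. ATP5A1, the alpha subunit of ATP synthase, had 17.2 and 3.14 RPM, and its gamma subunit ATP5C1 had 34.9 and 7.49 RPM, but these calls were lost under median or TMM scaling.

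The 10 compared genes encoded by mitochondrial DNA went the other way. All 10 lay above 0, with a median difference of 0.68 and a range of 0.25 to 1.61, none large enough for a call. COX1, a subunit of cytochrome c oxidase, had 15454 RPM in the oocyte library and 47085 RPM in the embryo library, 3.05-fold higher (3.02 to 3.08). ND5, a complex I subunit, had 6807 and 15646 RPM, and the ATP synthase subunit ATP8 had 13602 and 21698 RPM. In cow, 9 genes of this list were compared, with a median of 0.58.

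Other groups that make RNA or handle proteins held few called genes. RNA polymerase II and Mediator genes had 3 lower members of 39 compared, none higher, 34 with a difference below 0 and a median of −0.66, beside 2.17% of all rows lower and a median of −0.14. With a pseudocount of 5 RPM 1 of them was lower. The 3 were the Mediator subunits MED21 and MED20 (19.5 and 3.14 RPM) and POLR2B, a catalytic-core subunit of the polymerase, at 77.3 and 15.9 RPM. POLR2B overlaps IGFBP7, which was also lower, and it was not called under median scaling. Proteasome genes had 2 of 32 lower and 1 higher, close to the shares of all rows (2.17% and 3.26%), with a median of −0.55. The lid subunits PSMD6 (77.3 and 11.11 RPM) and PSMD7 (55.4 and 10.6 RPM) were lower, while the activator subunit PSME1 was higher (2.07 and 14.5 RPM). POMP, a chaperone of proteasome assembly that was outside that list, went from 107 to 19.3 RPM.

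Splicing factors had 2 lower members of 51, close to the 2.17% of all rows. They were the small ribonucleoprotein subunits SNRPC (46.8 and 7.25 RPM) and SNRPF (57.7 and 13.5 RPM). Translation initiation factors had 2 lower members of 32, the eIF3 subunits EIF3D (16.9 and 1.93 RPM) and EIF3E (175 and 41.1 RPM). With a pseudocount of 5 RPM, 1 splicing factor and no initiation factor was lower. The medians of these lists, −0.15 each, were close to that of all rows and changed sign under median and TMM scaling. The calls of EIF3E and SNRPF were lost under all 3 other scalings.

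A further 6 lists were written after the values were seen, to describe what the lower and higher rows held, and their counts are no independent evidence of a direction. Shares over all rows were 2.17% lower and 3.26% higher. Mitochondrial ribosomal proteins had 5 lower of 47 compared and a median of −0.64, but 2 lower with median scaling and 0 with a pseudocount of 5 RPM. Genes of ribosome biogenesis and the RNA exosome had 5 lower and 1 higher of 71, with a median of −0.50. GNL2, a nucleolar GTPase of large-subunit assembly, went from 76.7 to 7.25 RPM (10.6-fold lower, 7.23 to 16.0), UTP4 of the small-subunit processome from 113 to 12.1 RPM, and the rRNA methyltransferase NOP2 from 29.9 to 2.90 RPM. POLR1C, shared by RNA polymerases I and III, was the higher one, at 1.18 and 16.2 RPM. Endoplasmic reticulum translocation genes had 3 lower of 31 (1 with a pseudocount of 5 RPM) and a median of −0.91, among them the signal peptidase subunit SPCS1 (27.2 and 2.66 RPM) and the chaperone PPIB (12.1 RPM and 2 reads). V-ATPase subunits, which acidify lysosomes, had 2 lower of 16, ATP6V1G1 (29.9 and 2.66 RPM) and ATP6V0A2 (115 and 18.8 RPM). None of 28 aminoacyl-tRNA synthetases was called.

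**Figure D3:**
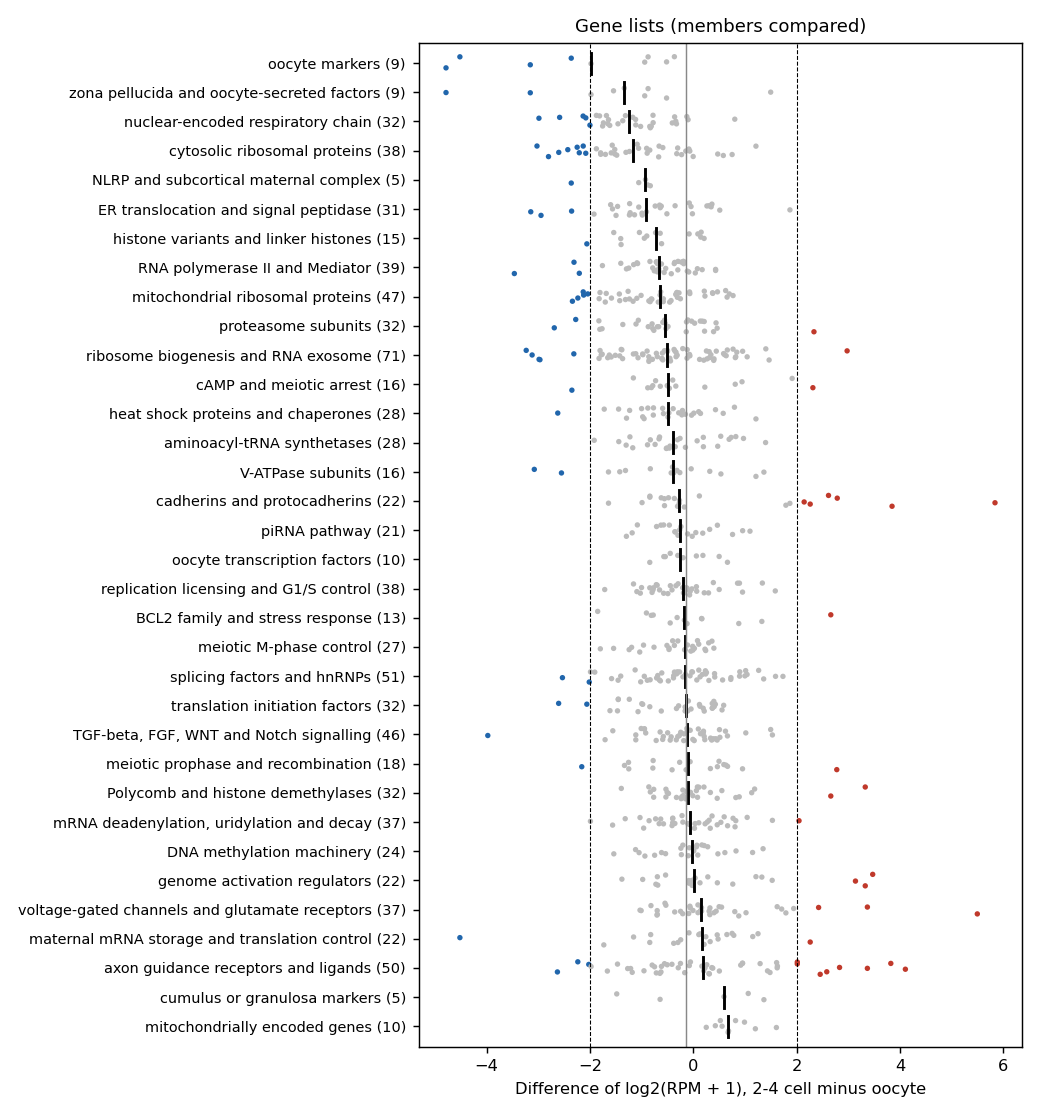
Difference of log2(RPM + 1), 2-4 cell minus oocyte (x axis), of each compared member (points) of the gene lists with 5 or more compared members, with list medians as black bars, called members in colour, the limits of a call at −2 and 2 as dashed lines and the median of all rows as a grey line. Respiratory chain and ribosomal protein lists have medians of −1.24 and −1.16, the mitochondrially encoded list 0.68, and cadherins have 6 red points above a median of −0.27.

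Few genes that run meiosis and the first divisions were called, but only 5.43% of all rows were. None of 27 compared genes of meiotic M-phase control was called, and their median was −0.17 beside −0.14 over all rows. Of the 27, 19 lay below 0, 5 of them below −1, and 8 lay above 0, none of them above 1. MOS, the kinase that holds the egg in metaphase II, had 92.1 RPM (82.4 to 103) in the oocyte and 30.9 RPM (26.01 to 36.8) in the embryo, and separase ESPL1 had 69.0 and 19.1 RPM. WEE2, the oocyte kinase that restrains CDK1, had 1976 and 1532 RPM. None of 38 replication licensing and G1/S genes was called either. The meiotic prophase list had 1 lower and 1 higher member of 18, beside 2.17% lower and 3.26% higher over all rows. SPO11, which makes the breaks that start recombination, went from 4.44 RPM to 0 reads, and TEX11, an X-linked meiosis gene, from 2 reads to 9.91 RPM. Neither was called with a pseudocount of 5 RPM, and SPO11 was not called under median scaling. Of 16 compared genes of cyclic AMP signalling, which keeps oocytes in prophase arrest, 1 was lower and 1 higher. These are too few to set apart from the shares over all rows, and with a pseudocount of 5 RPM none was higher. RGS2, an inhibitor of G-protein signalling, went from 261 RPM (244 to 278) to 50.3 RPM (43.9 to 57.6), 5.18-fold lower (4.45 to 6.06), while the phosphodiesterase PDE7B went from 5.03 to 29.0 RPM. Another phosphodiesterase, PDE4D, had 119 RPM (108 to 131) and 449.7 RPM (429.7 to 471), 3.79-fold higher (3.40 to 4.23), which was called under the other scalings but not here.

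The machinery that removes maternal mRNA was present in both libraries. Of 37 compared genes of deadenylation, uridylation and decay, 1 was higher and none lower. The higher one was the decapping factor LSM1, at 1 read and 4.35 RPM. BTG4, an adaptor that brings the CCR4-NOT deadenylase to maternal mRNA, had 1674 RPM (1631 to 1718) in the oocyte and 670.3 RPM (646 to 696) in the embryo. TOB1, a related adaptor, had 18.4 and 3.87 RPM, at a difference of −1.99 just short of a call, and ZFP36, which binds AU-rich elements, had 26.9 and 8.46 RPM.

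None of the 24 compared genes of the DNA methylation machinery was called. DNA methylation in these stages is the subject of the series' title. The list's median was −0.03 and changed sign under the other scalings. DNMT1, the maintenance methyltransferase, took 3.44% of all oocyte reads and 1.18% of the 2-4 cell reads. It had 34449 RPM in the oocyte and 11849 RPM in the embryo, 2.91-fold lower (2.88 to 2.94), a difference of −1.54. The de novo enzymes were nearly level, DNMT3A at 175 and 166 RPM and DNMT3B at 412 and 414 RPM. UHRF2, a reader of modified cytosine, had 6436 and 6751 RPM. SETDB1, the H3K9 methyltransferase that acts with KRAB zinc finger proteins, had 479.6 and 220.4 RPM. TET1, which oxidises methylcytosine, had 4.14 (2.47 to 6.96) and 10.4 RPM (7.71 to 14.0), and the H3K36 methyltransferase SETD2 had 18.4 (14.3 to 23.5) and 48.3 RPM (42.1 to 55.5). Chromatin proteins of the egg were measured too. The oocyte linker histone H1FOO had 416 and 142 RPM, and the histone mRNA binding protein SLBP had 468 and 177 RPM, neither of them called. H2AFV, a variant of histone H2A, was the only called member of 15 histone variants, at 16.3 and 3.14 RPM, and lost its call under the other scalings.

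The 12 largest rises were of genes with varied roles that had 0 to 5 reads in the oocyte library. PCDH17 (chr11:30511295-30611728), a protocadherin, had 2 reads (0.592 RPM, 0.162 to 2.16) in the oocyte library and 90.1 RPM (81.4 to 99.7) in the 2-4 cell library, a ratio of 152 (41.8 to 1261), in a span overlapping the unnamed row ENSSSCG00000031817. CACNA1A (chr2:65593911-65870456), the pore of the P/Q-type calcium channel of neurons, had 1 read and 57.5 RPM (50.7 to 65.3), a ratio of 194 (34.5 to 7704). KCNK10 (chr7:110121263-110271481), a potassium leak channel, had 0 reads and 55.1 RPM (48.4 to 62.7), at least 62.0-fold higher. GLRA1 (chr16:71142397-71230158), a glycine receptor subunit, had 0 reads and 31.7 RPM, at least 35.6-fold higher. The transmembrane proteases TMPRSS11F and TMPRSS11A had 0 reads each in the oocyte, and 35.3 and 32.9 RPM in the embryo. HPSE2 (chr14:109764514-110469017), which binds heparan sulfate, went from 1.48 to 64.5 RPM, 43.6-fold higher (18.4 to 135), and MDFIC2 from 1.48 to 56.5 RPM, 38.2-fold higher (16.1 to 119). PCBP3, an RNA-binding protein, had 1 read and 33.3 RPM. PCNX2 (30.9 RPM), LMNTD1 (24.2 RPM, overlapping RASSF8) and the histone H3 gene HIST2H3PS2 (21.99 RPM, overlapping HIST2H4A) also had 1 oocyte read each.

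Of 22 compared cadherins and protocadherins, the adhesion molecules of cell contacts, 6 were higher and none lower, beside 3.26% higher over all rows, although the list's median was −0.27. The count was 2 with a pseudocount of 5 RPM, and 8 with one of 0.5 RPM or with median scaling. PCDH19 had 1 read in the oocyte and 17.6 RPM (14.0 to 22.2) in the embryo. FAT3 (7.73 RPM), the neural cadherin CDH2 (6.77 RPM) and PCDH9 (5.07 RPM) had 0 oocyte reads, and CDH9 had 2 reads and 6.04 RPM. Among 37 voltage-gated channels and glutamate receptors, 3 were higher and none lower: CACNA1A and the glutamate receptor subunits GRIA2 (0 reads and 12.1 RPM, 9.16 to 15.9) and GRIN2B (0 reads and 5.80 RPM, 3.90 to 8.63). The share of all rows was 3.26%, and it was 7.41% among rows spanning 160 to 320 kb, a class that takes in this list's median span of 277 kb. The count was 1 with a pseudocount of 5 RPM and 7 with one of 0.5 RPM. GRIA2 had 0 reads again in the 8-16 cell, morula and blastocyst libraries. The list of axon guidance receptors and ligands, chosen after the values were seen, had 8 higher and 3 lower of 50, and 2 higher and 0 lower with a pseudocount of 5 RPM. EPHA4, an ephrin receptor, had 0 reads and 20.8 RPM (16.8 to 25.7), FLRT2 had 0 reads and 16.9 RPM, and the adhesion molecule CADM1 had 0 reads and 12.1 RPM. UNC5A, a netrin receptor, was one of the lower members, at 17.2 and 1.93 RPM.

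Regulators tied to genome activation and early lineages were a small part of the rises. Of 22 compared members of that list, 3 were higher and none lower, beside 3.26% higher and 2.17% lower over all rows. The list's median was 0.00. NR5A2 (chr10:22727825-22866904), a nuclear receptor of early embryos, had 0 reads in the oocyte and 13.05 RPM (10.001 to 17.0) at the 2-4 cell stage, at least 14.7-fold higher. KLF17 (chr6:167176834-167188418), a Krüppel-like factor of the early embryo, had 0 reads and 10.1 RPM (7.51 to 13.7), at least 11.4-fold higher. KDM5B (chr10:24739157-24831494), an H3K4 demethylase, had 2 reads and 15.0 RPM (11.7 to 19.2), a ratio of 25.3 (6.71 to 214). All 3 were higher still in the next library, with NR5A2 at 95.7 RPM, KLF17 at 72.0 RPM and KDM5B at 41.7 RPM in the 8-16 cell embryo. Their calls were lost with a pseudocount of 5 RPM, as was that of GRIA2. EED, a core part of the Polycomb complex PRC2, had 0 reads and 7.01 RPM (4.88 to 10.1), then 84.0 and 292 RPM in the 8-16 cell and morula libraries. EED and KDM5B were the only called genes of 32 Polycomb and histone demethylase genes, and neither was called with a pseudocount of 5 RPM. BCL2L11, a pro-death member of the BCL2 family, had 0 reads and 7.01 RPM (4.88 to 10.1). No gene of the oocyte transcription factor list (10 compared) or the piRNA list (21 compared) was called. With 5.43% of all rows changed, few calls could be looked for in lists of this size.

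A few higher genes reached high levels, and they are named for that, after their values were seen. AKT2 (chr6:48555842-48606167), a kinase of insulin and growth factor signalling, went from 82.9 RPM (73.7 to 93.2) to 596 RPM (573 to 620.1), 7.19-fold higher (6.35 to 8.17). EFNA5 (chr2:112534950-112817478), a membrane-bound ligand of Eph receptors, went from 76.1 to 310.0 RPM, 4.07-fold higher (3.56 to 4.68). SLC31A1, the copper importer of the cell surface, went from 23.4 to 213 RPM, 9.12-fold higher (7.24 to 11.6), and on to 3874 RPM in the morula, in a span that overlaps CDC26. The transcription elongation factors RTF1 and ELL2 were both higher, RTF1 at 9.77 and 79.5 RPM (8.14-fold, 5.68 to 12.02) and ELL2 at 17.5 and 75.1 RPM (4.30-fold, 3.25 to 5.78). NRF1, a transcription factor of nuclear genes for mitochondria, had 10.1 and 49.3 RPM. The unnamed row ENSSSCG00000000194 had 176 and 788 RPM and overlaps the tubulin gene TUBA1B.

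Higher and lower rows differed in the length of DNA their genes span. The median span, introns included, was 93.8 kb for higher rows, 15.8 kb for lower rows and 41.0 kb for all compared rows. Of the higher rows, 174 (47.0%) spanned 100 kb or more, against 8 (3.24%) of the lower rows and 2718 (23.9%) of all. Conversely 147 lower rows (59.5%) spanned less than 20 kb, against 28.7% of all rows. The median difference was −0.34 in rows under 5 kb (726 rows), above that of the next class, at −0.52 in rows of 5 to 10 kb (929 rows). It was −0.28 at 20 to 40 kb (2321 rows), 0.04 at 80 to 160 kb (1851 rows) and 0.23 at 320 kb or more (480 rows). In that longest class 7.50% of rows were higher and none was lower. Across genes, span and difference had a Spearman correlation of 0.248, and 0.238 over the 6240 rows with 10 RPM or more. The same correlation was −0.176 for the cow step from oocyte to 2-4 cell embryo. It was −0.115 for the pig step from 2-4 to 8-16 cells, which shares the 2-4 cell library. Over rows with 10 RPM or more it was −0.181 for the cow step and −0.043 for this later pig step.

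**Figure D4:**
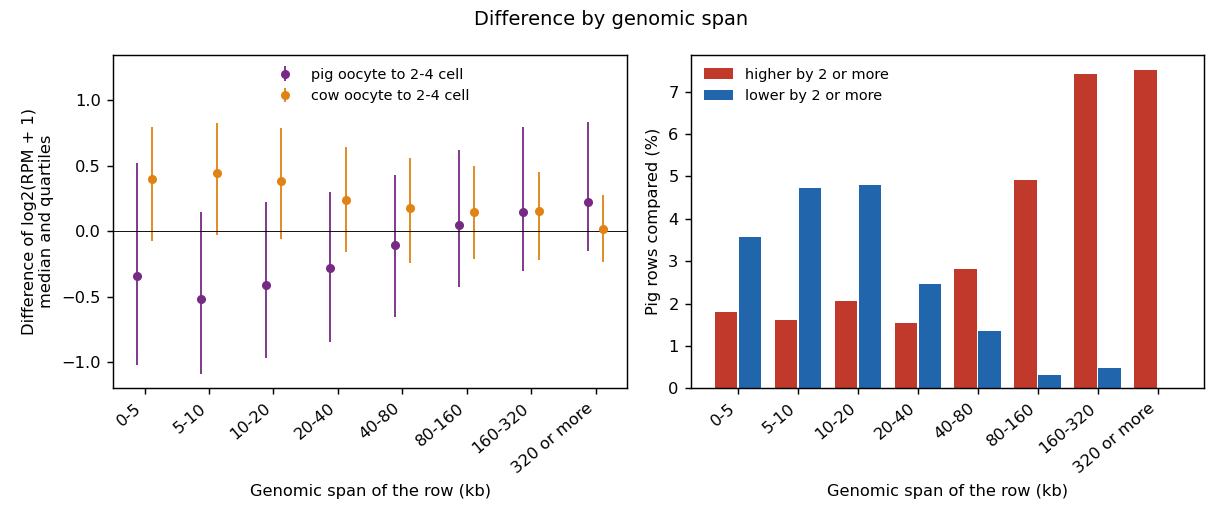
Left, median difference of log2(RPM + 1) with quartiles (y axis) by genomic span in kb (x axis) for pig (purple) and cow (orange) from oocyte to 2-4 cell embryo; right, share of pig rows called higher (red) or lower (blue) in each span class, in percent. The pig median is −0.34 under 5 kb, then moves from −0.52 at 5 to 10 kb to 0.23 at 320 kb or more, and no lower row lies in the longest class.

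Some called rows were neighbours on a chromosome. Taking compared rows in genomic order, 32 adjacent pairs were both higher, 20 of them under 100 kb apart, and 17 adjacent pairs were both lower, 16 of them under 100 kb apart. TMPRSS11A, ENSSSCG00000008929 and TMPRSS11F formed a run of 3 higher rows on chromosome 8 (chr8:65636850-65670100 and chr8:65736156-65824038 for the outer members). SLC26A7 and LRRC69, WDR17 and ASB5, and CAMK4 and STARD4 were other higher pairs without overlap. Most lower pairs overlapped, as PPIB and SNX22, ZP2 and TMEM159, and XPC and TMEM43 did, and reads of overlapping rows cannot be told apart where counting was not by strand. Of the lower rows 42.1% overlapped another row, against 23.2% of the higher rows and 34.1% of all. Among the autosomes, the share of higher rows ran from 1.62% on chromosome 12 to 6.10% on chromosome 16.

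Rows that were lower at the 2-4 cell stage had a higher median level in the later libraries. These rows were chosen for a low value in the single 2-4 cell library, so higher values in other libraries follow in part from that choice, and the levels are given as a description. The median level of the 247 lower rows was 19.8 RPM in the oocyte, 2.90 at 2-4 cells, 6.95 at 8-16 cells, 15.0 in the morula and 17.4 in the blastocyst library. Ribosomal protein genes had a median of 16.7 RPM at 8-16 cells, 94.6 in the morula and 528 in the blastocyst, and respiratory chain genes reached 147 RPM there. RPL6 had 16.7, 165 and 488 RPM in these libraries, HSPA8 182, 1042 and 1345 RPM, and PLIN2 16.4, 317 and 1109 RPM. Among the named oocyte products, ZP3, ZP4, ZAR1 and OOEP had 0 reads in the blastocyst library, while ZP2 had 0.804 RPM and BMP15 5.09 RPM. Before that, ZP3 had 16.4 RPM at 8-16 cells, above its 2-4 cell level, and 3.33 RPM in the morula. HPGDS had 192 and then 11.99 RPM, and ZAR1 3.47 and then 1.33 RPM. RGS2 had 48.6 RPM at 8-16 cells and 0 reads in the 2 later libraries.

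Rows that were higher at the 2-4 cell stage were found at 8-16 cells about as often as other rows. Of the 370, 336 (90.8%) had 1 RPM or more at 8-16 cells, 300 (81.1%) in the morula and 225 (60.8%) in the blastocyst library. The same shares over all compared rows were 91.3%, 85.7% and 79.1%. Their median level was 8.22 RPM at 2-4 cells, 8.84 at 8-16 cells, 11.2 in the morula and 3.89 in the blastocyst. Several of the largest rises were brief. PCDH17 had 58.7 RPM at 8-16 cells, 5.66 RPM in the morula and 0 reads in the blastocyst, CACNA1A had 11.7, 3.33 and 0, and KCNK10 had 7.58, 2.997 and 0.804 RPM. TMPRSS11A had 53.4 RPM at 8-16 cells, 1.33 RPM in the morula and 0 reads in the blastocyst. HPSE2 was longer lasting, at 174, 52.3 and 102 RPM. Each later stage was also 1 library.

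**Figure D5:**
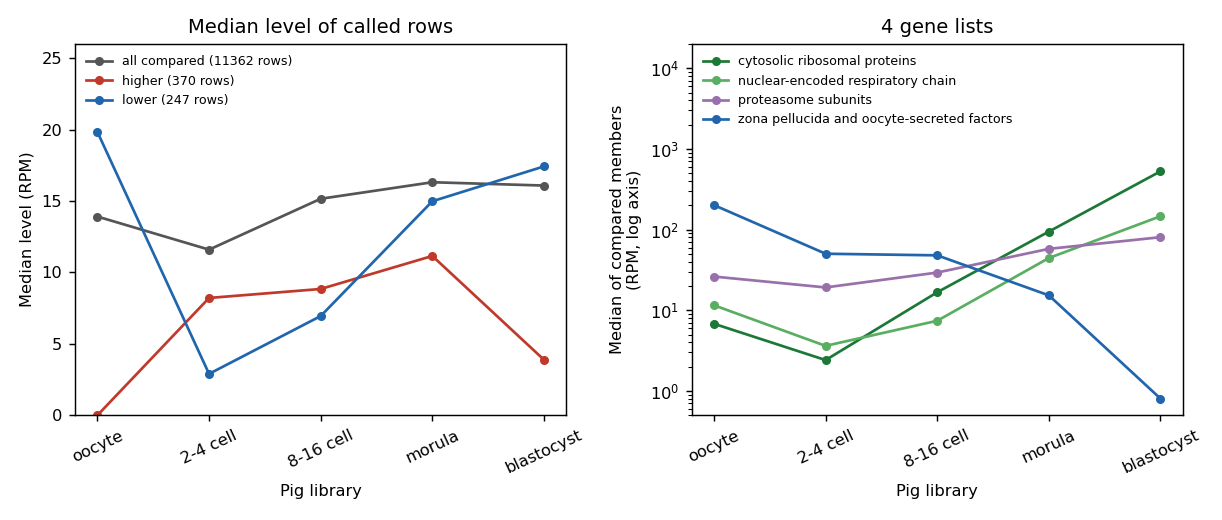
Median level (y axis, RPM) over the 5 pig libraries (x axis) of all compared, higher and lower rows (left, linear axis) and of the compared members of 4 gene lists (right, log axis), 1 library per stage. Lower rows, which were chosen for their low 2-4 cell value, have medians of 19.8, 2.90 and 17.4 RPM in the oocyte, 2-4 cell and blastocyst libraries, and ribosomal protein genes 6.81, 2.42 and 528 RPM.

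In cow the same step moved few genes. Of 11226 cow rows compared in the same way, 42 were changed (0.374%), 22 higher (0.196%) and 20 lower (0.178%). Of the 293 symbols that were higher in pig, 175 were compared in cow and none was called, with a median cow difference of 0.19 beside 0.25 for all pig symbols compared there. Of the 197 symbols that were lower in pig, 165 were compared in cow, 1 was lower and 1 higher, with a median of 0.27. NUDCD2, a NudC-domain protein, was lower in both, at 67.2 and 13.3 RPM in pig and 13.2 and 2.03 RPM in cow. Cow ZP2 had 3261 and 2291 RPM, cow BTG4 1723 and 1917 RPM, and cow RPL6 39.4 and 37.8 RPM, all within 1 of no difference. Cow CNIH4 had 273 and 68.7 RPM, a difference of −1.97 in the same direction as in pig and just short of a call. The ribosomal protein list had a cow median of 0.29 and the respiratory chain list 0.20. Levels were set side by side here and no difference between the species was tested, since the tables were made separately and each stage was 1 library per species. Of the symbols higher in pig and in the cow table, 41.2% were under 1 RPM in the cow oocyte, against 19.3% of all compared pig symbols found in the cow table.

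RNA of oocyte marker genes was found in both libraries. All 9 oocyte markers in the table had reads in each, and their summed level was 7648 RPM in the oocyte, 4300 RPM at 2-4 cells and 22.3 RPM in the blastocyst. Of the 9, 4 were lower (ZP2, ZP3, ZAR1 and OOEP). Markers of the cumulus and granulosa cells that surround an oocyte summed to 64.8 and 53.9 RPM in the 2 libraries, with 6 of 12 at 0 reads in each and none called. STAR, a steroidogenic gene that gave the largest part of this sum, had 43.2 and 27.3 RPM and overlaps ASH2L. Of 11 sperm markers, 10 were at 0 reads in the oocyte and 9 in the embryo. AKAP4, a sperm tail protein, had 0 reads and 4.59 RPM (2.94 to 7.17) in a span overlapping CCNB3, and ODF2L had 31.4 and 38.9 RPM. The ciliated cell marker FOXJ1 had 0 reads in both, and the white blood cell marker PTPRC had 4.44 and 2.90 RPM. Trophectoderm and blastocyst markers summed to 8.29 RPM in the oocyte, 11.6 RPM at 2-4 cells and 8369 RPM in the blastocyst, with none called between the first 2.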

How the data were processed

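The authors deposited 1 table per species with log2 values, here read as log2 RPM (reads per 1000000 reads) because the back-transformed values above the lowest are nearly all whole multiples of 1 read. Per the submitters' processing notes, the tools were Trim Galore 0.6.4 and HISAT2 2.1.0, and the builds Sscrofa11.1 and UMD3.1. The counting tool, annotation release, strand setting and duplicate handling are not given in the sources used here. A count of 0 is written in the table as 0.9 of a read, and was used so in differences and as 0 in printed levels. Of the 2-4 cell values 99.99%, and of the oocyte values 100%, gave whole reads within 0.05 read.

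Differences used log2(RPM + 1), on which low genes' fold changes are understated, and a minimum of 1 RPM in either library. Intervals are 95% Wilson for levels and exact conditional (Clopper-Pearson) for folds. Genes named by rule were the 12 largest differences in each direction among symbols with 10 RPM or more, the 10 highest levels in each library, up to 4 members per list and the highest markers. Members and 32 lists were chosen with earlier results of these data known, and 6 lists after the values were seen. Alternatives were other pseudocounts, scalings, minimums, thresholds and row sets. The step that makes the calls was tested on simulated data. Analyses used Python 3.11.15 with pandas 2.3.3 and scipy 1.17.1. Promoter sequences were not analysed here.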

Additional observations from a re-analysis of the deposited data

Results flagged for a closer look

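APMAP, a membrane protein of the adipocyte and other cells, was called in both species with opposite signs. In pig it had 12.4 RPM in the oocyte library and 0.967 RPM (4 reads) in the 2-4 cell library, a difference of −2.77 in log2(RPM + 1). In cow it had 6.09 and 35.4 RPM, a difference of 2.36. Each value comes from 1 library, and the difference between the species was not tested. No other symbol was called in opposite directions in pig and cow.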

How the results depend on the processing

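No paired analysis was possible because each group has 1 library, and for the same reason no library could be left out. The count of changed rows depended most on the pseudocount and the threshold. A pseudocount of 0.5 RPM gave 991 changed rows (603 higher, 388 lower), and one of 5 RPM gave 121 (52 higher, 69 lower, so 43.0% higher). A threshold of 1 gave 3101 (1329 higher, 1772 lower, 42.9% higher), and one of 3 gave 127 (90 higher, 37 lower, 70.9% higher). Scaling moved the split: the median difference of all rows shifted by 0.16 without mitochondrial reads (765 changed, 530 higher and 235 lower, 69.3% higher), by 0.21 with median scaling (163 lower, 75.6% higher) and by 0.18 with TMM (70.0% higher). Rows overlapping no other row gave 143 lower and 66.5% higher. Counts stayed within 1.5 times with a minimum of 5 RPM (550) and with only the rows that have a symbol (490). They also did with 0 reads taken as 0 RPM, chosen after seeing the data (702, 442 higher and 260 lower). The count with no minimum (617) was bound to equal the main one, since rows under 1 RPM cannot reach a call. Of the 66 named genes called, 27 lost the call with a pseudocount of 5 RPM, 4 without mitochondrial reads, 6 with median scaling and 5 with TMM. Among those 27 were NR5A2, KLF17, KDM5B, OOEP and GRIA2. Depth limits the rises, since of the 370 higher rows 203 had 0 and 92 had 1 to 3 oocyte reads. Promoter sequence features that had been planned were not run.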

Other observations

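Some called genes outside the gene lists are given here as single genes, chosen after their values were seen, and no group of genes is claimed from them. NPC1, which exports cholesterol from lysosomes, went from 97.4 RPM (87.4 to 109) in the oocyte to 17.6 RPM (14.0 to 22.2) in the 2-4 cell embryo. NSDHL, an enzyme of cholesterol synthesis, had 52.7 and 11.4 RPM, and RETSAT, a retinol saturase, had 76.1 and 12.6 RPM. The glutamine transporter SLC1A5 went from 163 to 37.5 RPM, and the nuclear lamina protein LMNA from 26.1 to 2.90 RPM. The DNA damage sensor XPC had 66.9 and 12.1 RPM, in a span overlapping TMEM43.

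Single higher genes chosen in the same way included the transcription factors MEF2C, NFIA and EBF2. MEF2C had 1.48 RPM (0.632 to 3.47) and 21.7 RPM (17.7 to 26.7), NFIA 2.37 and 26.6 RPM, and EBF2 5.03 and 43.0 RPM. BDNF, a neurotrophin, had 3 reads in the oocyte library and 27.1 RPM (22.5 to 32.6) in the 2-4 cell library, a ratio of 30.5 (10.2 to 150.0). GPHN, the scaffold of glycine receptors at inhibitory synapses, went from 7.99 to 44.5 RPM, 5.56-fold higher (3.70 to 8.67).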
